A study of Mus musculus with 15 samples.

Results

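The LPS response of Junb knockout macrophages was compared with that of wild type macrophages, gene by gene, as the difference of the responses: knockout with LPS minus knockout untreated, less the same change in wild type. The members were chosen by the labels alone and are all 15 of the 15 arrays. Wild type mice were C57BL/6 and gave 4 untreated and 4 LPS arrays. Knockout cells, on the same C57BL/6 background, carried Junb-fl/fl Lyz2-Cre+/+, a floxed Junb cut by Cre from both copies of the myeloid gene Lyz2, and gave 4 untreated and 3 LPS arrays (replicates 2, 3 and 4). All cells were macrophages grown from bone marrow with MCSF, the macrophage growth factor, and LPS was applied at 100 ng/ml for 4 h. Replicates were separate wells, with no mouse named for any well, so the p-values measure the spread between wells.

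JUNB is a subunit of AP-1, a family of dimeric transcription factors built from JUN, FOS, ATF and MAF proteins. LPS, a component of the outer membrane of Gram-negative bacteria, acts through Toll-like receptor 4 and within hours induces cytokines, chemokines and, through interferon beta, a large set of interferon-stimulated genes, while genes of the resting macrophage are shut down. The same stimulus also induces its own brakes, among them the cytokine IL-10, phosphatases of MAP kinases and proteins that degrade cytokine mRNAs.

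Levels are log2 of the processed signal over the array's 75th percentile, so that 0 is a spot at that percentile, and every value below a common floor of -4.52 was raised to it. All 20 macrophage markers with a probe, among them Adgre1, Csf1r and Spi1, were well above background on all 15 arrays. A called difference of the LPS responses was found for 4 of the 20 (20%, beside 10.1% over all genes). Cebpa, Mertk and Fcgr1 were lower and Lyz2 higher, and Fcgr1 lost its call in 19 of 28 alternative settings. Junb was well above background on 0 of 7 knockout arrays and its level was below that of wild type by at least 75.1-fold in untreated cells and at least 302-fold after LPS. Lyz2 itself differed by -8.24 untreated and by -6.96 with LPS (log2, knockout minus wild type). Xist had signal well above background on each of the 8 wild type arrays and on 0 of 7 knockout arrays, and Eif2s3y, a Y-linked gene, on each of the 7 knockout arrays and on 0 of 8 wild type arrays. Ddx3y, also Y-linked, matched Eif2s3y. Other Y-linked genes also exceeded background on untreated and LPS-treated wild type arrays: Uty on 3 and 3, Kdm5d on 4 and 1, and Usp9y on 2 and 2. Of 5 sex-linked genes tested, Xist had a called lower LPS response and Eif2s3y a called higher one (40%, beside 10.1% over all genes). Each had signal in only 1 genotype, and Eif2s3y lost its call in 13 of 26 alternative settings. Slide 1 held the 7 knockout arrays and slide 2 the 8 wild type ones. The effects of Junb loss, Cre, Lyz2 loss, the sex of the mice and the slide therefore cannot be told apart, although a constant slide effect cancels in the difference of the responses of genes above the floor. Marker lists of other cell types were short, and their called differences are given beside 10.1% over all genes. They were S100a8 of the 9 neutrophil markers tested (11.1%), Batf3 of 8 dendritic cell markers (12.5%) and Cd79b of 3 B cell markers (33.3%). Of 8 fibroblast markers, Lum and Pdgfrb were called (25%). No member was called in the lists of T and NK cells, erythroid cells and megakaryocytes, or mast cells and basophils. The summed level of the neutrophil list (signal over the 75th percentile) was lower in knockout arrays, at 39.7 to 64.5 untreated and 67.2 to 81.6 with LPS, against 70.3 to 115 and 126 to 164 in wild type, with Cxcr2 and Mpo at background on every array. The summed level of the fibroblast list was 3.82 to 5.56 untreated and 18.9 to 21.7 with LPS in knockout, against 3.47 to 5.57 and 8.18 to 11.5 in wild type. This sum weighs bright members most and includes Pdgfrb, whose log2 level with LPS was 3.61 to 3.83 in knockout and 1.84 to 2.17 in wild type. Its gap with LPS therefore does not describe the list as a whole. The part of other cell types in the results was not tested.

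The LPS response differed between the genotypes for 1432 of 14197 genes, 10.1% (limma, adjusted p under 0.05). It was lower in the knockout for 1018 genes, 7.17%, and higher for 414 genes, 2.92%, and the difference was at least 2-fold for 460 (3.24%) and 189 (1.33%) of these. In all, 34.9% of genes rose and 25.5% fell in wild type with LPS, and 32.5% rose and 27.5% fell in the knockout. The median difference over all genes was -0.06 and the median absolute difference 0.35. Of the 2547 genes that rose at least 2-fold in wild type, 460 (18.1%) had a lower response in the knockout and 107 (4.20%) a higher one. Of the 1992 genes that fell at least 2-fold in wild type, 99 (4.97%) had a lower response and 96 (4.82%) a higher one. Among the remaining genes, which did neither, 459 had a lower response and 211 a higher one.

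The called genes were separated by what each genotype did. Blunted induction, a rise in wild type that was smaller or not called in the knockout, held 576 genes, and 225 of them had no called change in the knockout. Deeper repression, a fall in the knockout that was smaller or not called in wild type, held 375 genes. Larger induction, a rise in the knockout that was smaller or not called in wild type, held 276 genes, and shallower repression held 119. In 67 genes a rise in wild type was turned into a fall in the knockout, and in 19 genes a fall into a rise. Leaving out 1 library moved these counts. Without LPS-treated knockout replicate 3, the lower responses numbered 636, blunted induction 389 and deeper repression 207. Without untreated wild type replicate 1 the higher responses numbered 645 and shallower repression 207, and without LPS-treated knockout replicate 2 shallower repression numbered 76.

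**Figure D1:**
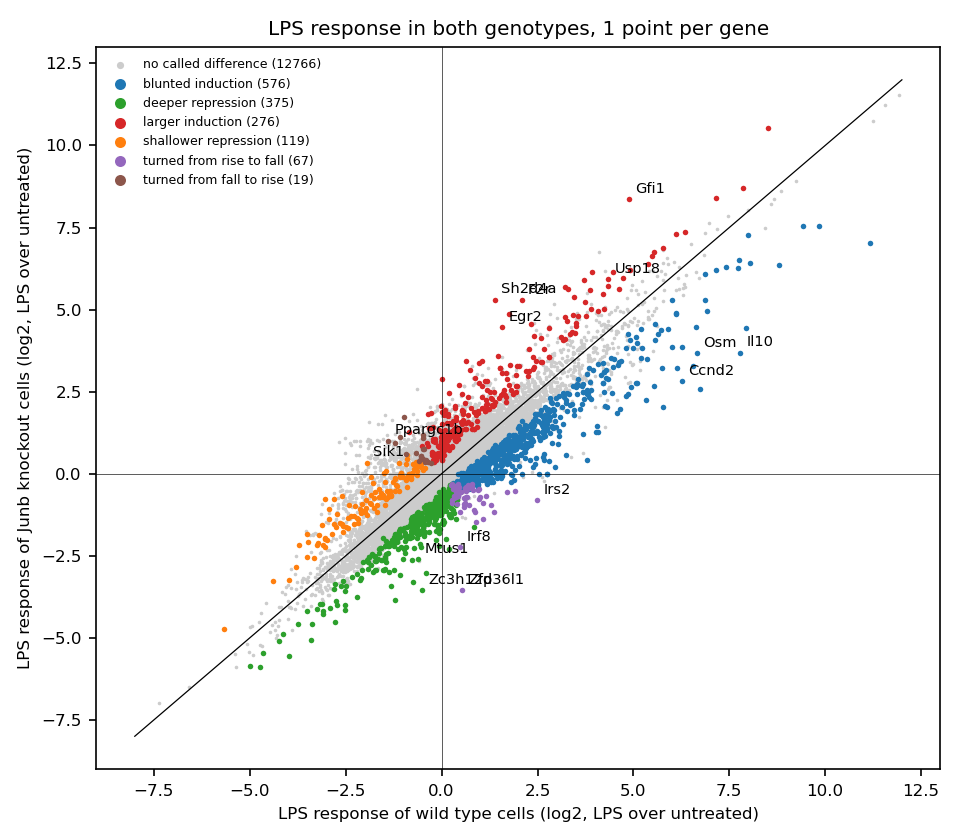
LPS response of each gene in wild type cells (horizontal axis) and in Junb knockout cells (vertical axis), as log2 of LPS over untreated; each point is 1 gene, colours give the 6 classes, grey marks the 12766 genes with no called difference, and the diagonal marks equal responses. Blunted induction (576 genes) lies to the right of and below the diagonal, larger induction (276 genes) above it, and Zfp36l1, Irs2 and Irf8 lie in the lower right quadrant, up in wild type and down in the knockout.

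Whether a gene had any signal before LPS set what could be measured. Untreated cells of both genotypes had the gene at background (well above background on at most 1 untreated array of each) for 82 genes of blunted induction (14.2%) and 44 of larger induction (15.9%), and for no gene of the repression classes, in which a fall needs a starting level. Of the 357 genes tested that were at background untreated in both genotypes, 126 were called (35.3%), against 1196 of 13204 (9.06%) with measured untreated levels in both and 17.3% of those at background in 1 genotype. The 357 genes had passed the filter on dim probes only through an LPS-treated group in which they were high. The higher share therefore follows in part from the filter and is no result about these genes. For the genes at background, the difference of responses is the difference of the levels with LPS, it is limited by the floor, and the slide does not cancel in it. Values raised to the floor have no spread, so the errors and p-values of such genes can understate the spread between wells. In 30 genes of blunted induction the knockout was at background on all 7 arrays.

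**Figure D2:**
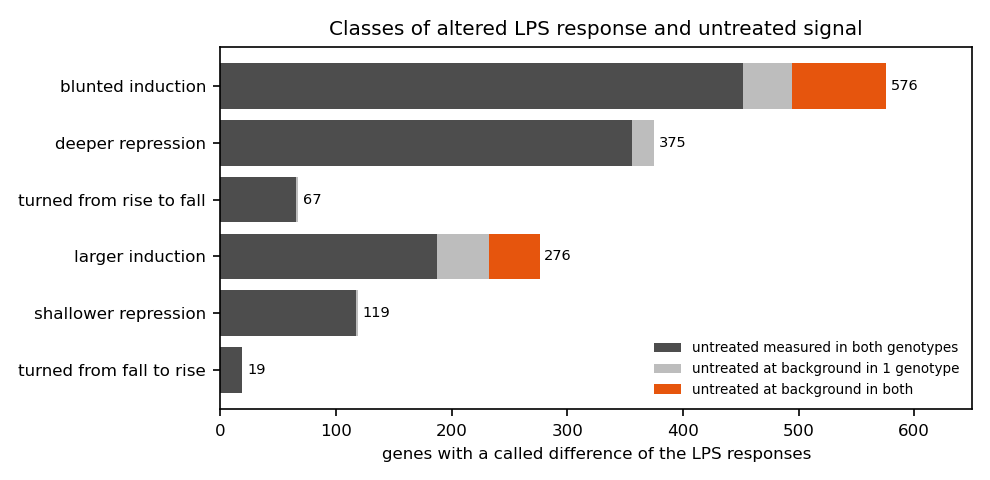
Number of genes in each class of altered LPS response (bars), divided by the untreated signal: measured in both genotypes (dark), at background in 1 genotype (light) or at background in both (orange). The orange part is present in blunted induction (82 of 576 genes) and larger induction (44 of 276) and absent from the repression classes.

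Blunted induction included a secreted brake of inflammation. Il10, the anti-inflammatory cytokine IL-10, lay at -2.25, -2.09, -2.44 and -2.15 on the untreated wild type arrays and at 5.49, 5.88, 5.52 and 5.34 with LPS. In the knockout it lay at -0.63, -0.50, -0.79 and -0.47 untreated and at 3.02, 3.10 and 3.15 with LPS. The knockout arrays were thus all above wild type before LPS and all below it after LPS, with no overlap in either state. The rise was 7.79 (log2) in wild type and 3.69 in the knockout, a difference of -4.10 ± 0.18 (SE, adjusted p = 4.0e-08), made up of a gap of 1.63 untreated and of -2.46 with LPS (knockout minus wild type). The call held in all 28 alternative settings.

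Other mediators of the same kind shared the direction. Il19, a cytokine of the IL-10 family, rose by 5.76 in wild type and 2.03 in the knockout (difference -3.73 ± 0.45, and -3.98 by another probe). Etv3, a transcriptional repressor, gained 1.70 in wild type and changed by -0.54 in the knockout. Il27, a subunit of the cytokine IL-27, Sbno2, a co-repressor downstream of IL-10, Nfil3, a transcription factor induced by IL-10, and Stat3, the transcription factor of IL-10 signalling, were blunted by -1.22, -1.15, -1.11 and -1.10. Tnfrsf1b, a TNF receptor, was the member with a larger response (0.56). Of the 19 members measured in the list of IL-10 and other anti-inflammatory mediators, 7 were lower, 1 higher and 11 not called, with a median difference of -0.56 against -0.06 over all genes. Over all genes tested, 7.17% were lower and 2.92% higher, the shares to set beside the counts of every list below.

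The list of pro-inflammatory cytokines, by contrast, split. Of its 21 members, 6 were lower and 3 higher, with a median of -0.39, or 0.17 after quantile normalisation. Osm, oncostatin M of the IL-6 family, lay at 3.94, 4.54, 3.95 and 4.12 in wild type with LPS and at 1.21, 0.92 and 1.68 in the knockout, while untreated arrays of both genotypes overlapped between -2.74 and -1.98. Its difference was -2.98 ± 0.29 (adjusted p = 2.6e-05), and it lay wholly in the LPS level. Il33, an alarmin, Il23a, the p19 subunit of IL-23, Csf3, the granulocyte growth factor G-CSF, and Tslp, an epithelial-type cytokine, were at background untreated in both genotypes. Their LPS levels differed by -2.72, -2.51, -2.28 and -2.10 (log2, knockout minus wild type). Csf3 rose at least 1845-fold in wild type and at least 370-fold in the knockout, and Tslp stayed at the floor on all 3 LPS-treated knockout arrays. The 3 with larger responses were Tnf, the central inflammatory cytokine (0.78), Tnfsf10, the death ligand TRAIL (1.30), and Tnfsf9, the ligand of the co-stimulatory receptor 4-1BB (1.41). All 3 started lower in the untreated knockout, by -1.30, -1.72 and -1.02, and with LPS the knockout level of Tnf was still below wild type (-0.51).

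Lower responses were also called in the list of phosphatases and other proteins that switch off MAP kinases. Of 14 members measured, 6 were lower, 1 higher and 7 not called, with a median of -0.34, beside 7.17% lower and 2.92% higher over all genes. Of the 6, 4 were blunted, Dusp7 fell deeper and Dusp6 turned from rise to fall, and 3 of 11 members were lower in the deposited value table. Dusp5, specific for ERK in the nucleus, had a difference of -2.30 ± 0.25, Dusp10, which acts on p38 and JNK, of -2.18 ± 0.26, and Dusp14 of -1.81 ± 0.13. Dusp5 was at background on every untreated array and rose at least 38.4-fold in wild type and at least 10.6-fold in the knockout. Dusp14 was at background on all 7 knockout arrays and rose at least 7.59-fold in wild type. Dusp6, specific for ERK in the cytoplasm, gained 1.07 in wild type and changed by -0.90 in the knockout, Dusp7 had a difference of -1.68, and Dusp1, a phosphatase of p38 and JNK, of -0.75. Dusp8 had a slightly larger response (0.65) from an untreated level at the floor.

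**Figure D3:**
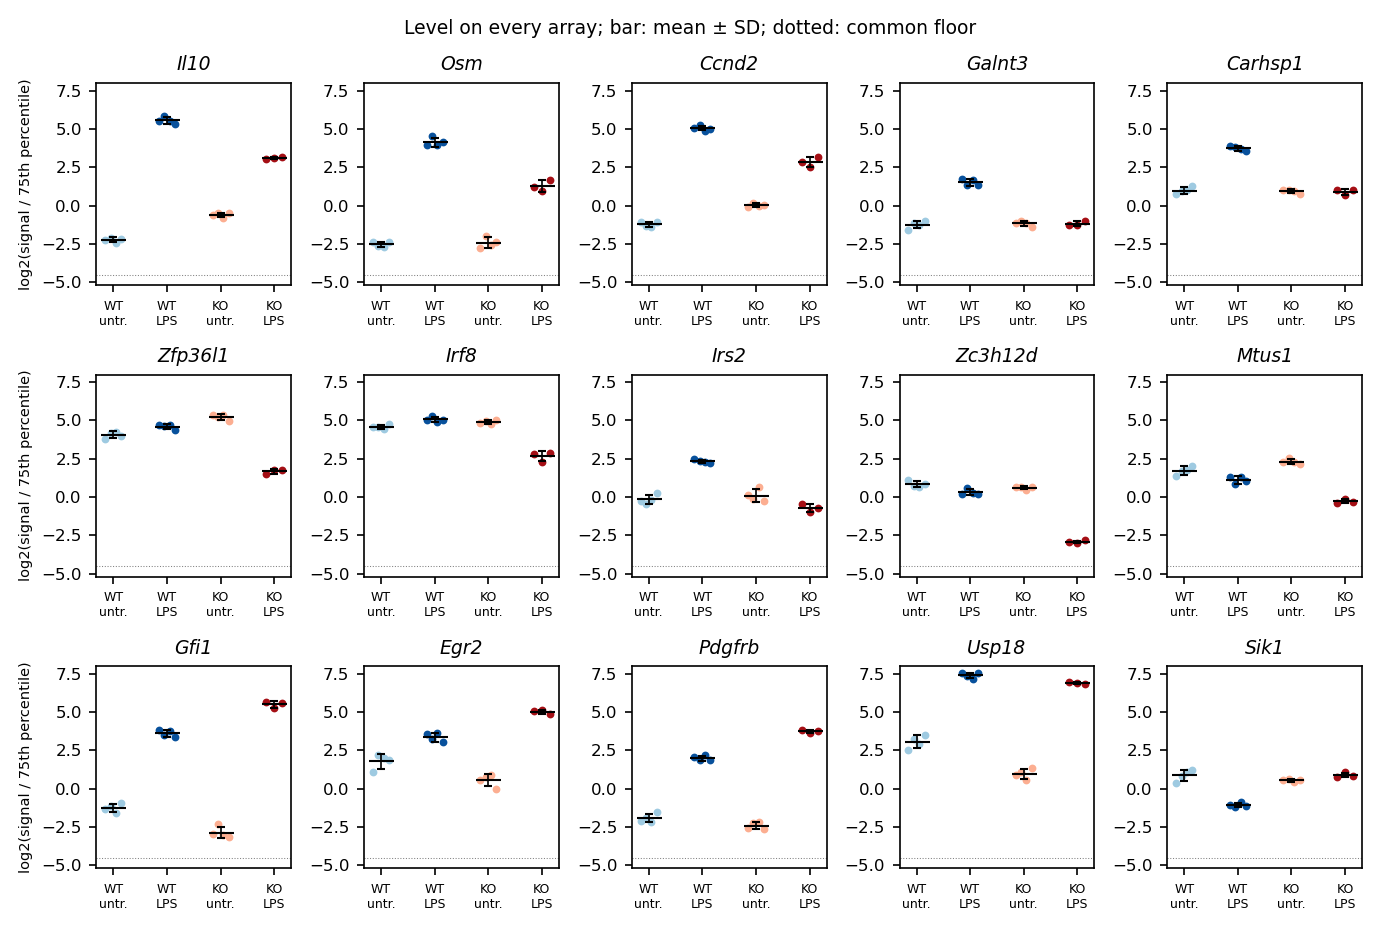
Level of 15 genes on each of the 15 arrays, as log2 of the signal over the 75th percentile of the array (vertical axis), for untreated and LPS-treated wild type (blue) and knockout (red) cells; bars give mean ± SD (n = 4, and 3 for LPS-treated knockout) and the dotted line is the common floor. Galnt3 and Carhsp1 rise in wild type and stay level in the knockout, Zfp36l1, Irf8 and Irs2 fall in the knockout only, Gfi1 and Egr2 start lower and end higher in the knockout, and Usp18 starts lower and ends near wild type.

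Outside these groups, large blunted responses of genes with a measured untreated level were of varied function. Ccnd2, cyclin D2, lay at -1.04, -1.31, -1.41 and -1.10 untreated and 5.07, 5.24, 4.90 and 4.99 with LPS in wild type, and at -0.08, 0.18, -0.02 and 0.05 untreated and 2.85, 2.55 and 3.17 with LPS in the knockout. Like Il10, it started higher and ended lower in the knockout, without overlap, and its difference was -3.44 ± 0.20 (adjusted p = 2.7e-07). Galnt3, an enzyme that starts mucin-type O-glycans, and Carhsp1, an RNA-binding protein that stabilises Tnf mRNA, had lost the response: they rose by 2.76 and 2.75 in wild type, while the knockout changed by -0.02 in each. Carhsp1 lay at 3.91, 3.81, 3.69 and 3.54 in wild type with LPS and at 1.03, 0.69 and 1.01 in the knockout, where the untreated arrays lay between 0.74 and 1.00. Glipr2, a Golgi-associated protein (-2.92 ± 0.31), and Slc28a2b, a gene next to the nucleoside transporter Slc28a2 and nearly identical to it (-3.08 ± 0.20), kept a partial rise. Slc28a2 itself was blunted by -1.98, and the probes of both copies cannot be told apart.

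Among genes at background in untreated cells of both genotypes, the lower responses included that of U90926, which encodes a transcript of little known function and rose at least 4006-fold in wild type. Its LPS levels were 6.72, 6.91, 6.47 and 6.51 in wild type and 2.51, 2.73 and 3.07 in the knockout. Inhba, the subunit of activin A, had LPS levels of 3.67, 3.55, 3.45 and 3.0 against 0.20, -0.34 and 0.30 (difference -3.51 ± 0.26). Neither gene overlapped between the genotypes with LPS. Ifi202b, an interferon-inducible gene with near-identical relatives, had a difference of -3.28 ± 0.35. Mmp3, the matrix protease stromelysin-1, rose at least 93.2-fold in wild type and at least 12.7-fold in the knockout, and Lipg, endothelial lipase, at least 34.0-fold and at least 4.79-fold. After quantile normalisation, which gives floor-level values another scale, U90926 (-2.97, adjusted p = 0.20) and Mmp3 (-2.30, adjusted p = 0.069) kept the direction and lost the call.

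Further blunted genes came from the vascular and clotting lists. Edn1, the vasoconstrictor endothelin-1 (-2.43 ± 0.12), F3, tissue factor, the starter of coagulation (-1.87 ± 0.20), and Thbs1, the matrix protein thrombospondin-1 (-2.76 ± 0.30), all ended lower in the knockout with LPS, by -2.43, -2.09 and -1.68. Edn1 lay at the floor on all 8 untreated arrays and rose at least 760-fold in wild type and at least 156-fold in the knockout. Csta2, a cysteine protease inhibitor of the stefin A family whose copies are nearly identical, had the largest lower value among list members, -4.18 ± 0.23, and rose by 6.75 in wild type and 2.57 in the knockout. The thrombin receptor F2r went the other way. It lay at the floor or at -4.50 on all 8 untreated arrays, at -2.23, -2.78, -2.42 and -2.29 in wild type with LPS, and at 0.96, 0.69 and 0.70 in the knockout with LPS, a difference of 3.21 ± 0.17 (adjusted p = 1.0e-07). Its untreated values have almost no spread because of the floor, so this error and p-value can understate the spread between wells. Of the 20 measured members of the list of coagulation, protease and thrombin receptor genes, 4 were lower and 3 higher, with a median of -0.27.

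The letters TGANTCA, with any base at N, were searched as a loose form of the AP-1 motif. Promoter windows that hold them are shown for 4 genes whose responses differed, in either direction. They come from RefSeq (build GRCm38.p6) and hold the 250 bases before the start site, 5′ to 3′ on the gene's strand, with matches to TGANTCA in capitals. F3 (chr3:121723287-121723536, plus strand) and Mmp3 (chr9:7445572-7445821, plus strand) were blunted, Zfp36l1 (chr12:80113014-80113263, minus strand), which is described next, was turned from rise to fall, and F2r (chr13:95618467-95618716, minus strand) had a larger response.
F3: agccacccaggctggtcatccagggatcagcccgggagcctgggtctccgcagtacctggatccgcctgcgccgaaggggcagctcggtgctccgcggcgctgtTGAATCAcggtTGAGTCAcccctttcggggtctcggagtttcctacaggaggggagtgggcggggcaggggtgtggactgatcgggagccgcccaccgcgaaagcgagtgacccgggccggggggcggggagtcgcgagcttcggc
Mmp3: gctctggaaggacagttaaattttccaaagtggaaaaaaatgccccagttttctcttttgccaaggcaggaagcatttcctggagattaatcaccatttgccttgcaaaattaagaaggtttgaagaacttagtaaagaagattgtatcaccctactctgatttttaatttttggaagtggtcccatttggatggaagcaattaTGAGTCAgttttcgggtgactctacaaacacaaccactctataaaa
Zfp36l1: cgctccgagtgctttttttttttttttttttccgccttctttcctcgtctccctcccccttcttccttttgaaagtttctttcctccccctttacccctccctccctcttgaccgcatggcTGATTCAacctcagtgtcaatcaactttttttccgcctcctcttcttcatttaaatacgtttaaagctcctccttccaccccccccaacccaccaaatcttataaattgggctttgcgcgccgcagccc
F2r: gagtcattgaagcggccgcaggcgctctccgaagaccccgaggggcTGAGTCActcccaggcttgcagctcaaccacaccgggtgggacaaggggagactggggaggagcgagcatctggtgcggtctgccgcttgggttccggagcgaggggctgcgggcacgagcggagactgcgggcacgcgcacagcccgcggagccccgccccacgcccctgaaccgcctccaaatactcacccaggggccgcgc
The F3 window holds 2 matches, 146 and 135 bases before the start site, Mmp3 has 1 at 46 bases, Zfp36l1 1 at 129 bases and F2r 1 at 204 bases. Among blunted genes with at least a 2-fold difference, 37 of 263 windows of 300 bases (250 before and 50 after the start) held TGANTCA on either strand, 14.1%, against 859 of 14291 windows (6.01%) of all genes tested. The share was 10.3% over all blunted genes and 5.56% in each of deeper repression and larger induction. These shares are descriptions with no test, a match is not a site of binding, and 73 of the 108 named genes had a window in the table. The letters were also present upstream of genes with larger responses, F2r and Ifit3b (88 bases before its start site).

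A further 67 genes were raised by LPS in wild type cells (median change 0.61) and lowered by it in knockout cells (median -0.56). The product of Zfp36l1 binds AU-rich elements of mRNAs and triggers their decay. This gene lay at 3.77, 4.21, 4.28 and 4.00 untreated and 4.73, 4.63, 4.69 and 4.37 with LPS in wild type. The knockout arrays lay at 5.35, 5.23, 5.34 and 4.95 untreated and at 1.51, 1.75 and 1.75 with LPS. All untreated knockout arrays were above wild type and all LPS-treated ones below it. The change was 0.54 in wild type and -3.55 in the knockout, a difference of -4.09 ± 0.20 (adjusted p = 6.3e-08).

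Irf8, a transcription factor of the monocyte and macrophage lineage, overlapped between the genotypes untreated (4.44 to 5.01) and rose to 5.05, 5.28, 4.90 and 5.05 in wild type. With LPS it lay at 2.78, 2.29 and 2.91 in the knockout, a change of -2.24 against 0.49 and a difference of -2.72 ± 0.20. Irs2, an adaptor of insulin and IL-4 receptors, gained 2.49 in wild type and changed by -0.80 in the knockout (difference -3.29 ± 0.30), and Ddit4, an inhibitor of mTORC1, was blunted by -2.29 ± 0.23. Adap2, an ARF GTPase-activating protein (-2.52 ± 0.21), and Inpp1, an inositol polyphosphate phosphatase (-2.46 ± 0.21), turned in the same way. In the 5 turned genes named here the LPS-treated knockout arrays lay below every LPS-treated wild type array.

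Deeper repression held a second regulator of mRNA. Zc3h12d, an RNA-degrading relative of Regnase-1, lay at 0.69, 0.69, 0.44 and 0.65 untreated and at -2.95, -3.00 and -2.82 with LPS in the knockout, while wild type went from between 0.69 and 1.11 to between 0.20 and 0.60. The change was -3.54 in the knockout and -0.51 in wild type, a difference of -3.03 ± 0.18 (adjusted p = 2.7e-07). With Zfp36l2, a close relative of Zfp36l1 (-0.93 ± 0.20), 3 of 17 measured mRNA decay regulators had a lower response and 0 a higher one (limma; also 0 at an unadjusted p under 0.05), with a median of -0.14. The share of lower responses over all genes was 7.17%. Mtus1, a microtubule-binding tumour suppressor, changed by -2.61 in the knockout and -0.61 in wild type.

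In nearly as many genes of this class the deeper fall began from a higher level. Of the 375 genes, 175 were higher in the untreated knockout than in untreated wild type (11.9% of all genes tested were). With LPS, 206 were lower in the knockout (17.1% of all genes were). For 154 the first held without the second. Mex3b, an RNA-binding ubiquitin ligase, lay at -1.16, -1.04, -0.91 and -0.78 untreated in wild type and at 0.73, 0.98, 0.87 and 0.46 in the knockout. With LPS the arrays lay between -1.36 and -1.03 in wild type and between -1.33 and -1.22 in the knockout, an overlap, so that its difference (-1.88 ± 0.19) was a difference of starting levels. Cables1, a regulator of cyclin-dependent kinases (-1.99 ± 0.30), Ccnd1, cyclin D1 (-1.56 ± 0.23), Kif11, a mitotic kinesin (-1.32 ± 0.19), and S1pr1, a sphingosine-1-phosphate receptor (-1.63 ± 0.28), had the same form, with untreated levels higher in the knockout by 1.49, 1.60, 1.23 and 1.42 and LPS differences of -0.50, 0.03, -0.09 and -0.21, none of them called.

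The LPS level of 66 genes of deeper repression was at background in both genotypes, so the depth of their fall is limited by the floor and their difference rests on the untreated levels. Rtn4rl1, a Nogo receptor relative (-2.15 ± 0.47), was one of these, with knockout levels of -1.0, -2.61, -3.14 and -2.46 untreated and the floor on all 7 LPS-treated arrays. Tspan32, a tetraspanin of blood cells, lay at or near the floor in wild type and at 1.91, 1.72 and 1.57 in untreated knockout cells (1 spot missing). It fell there by 2.29 (difference -2.48 ± 0.20), with -2.30 and -0.70 by other probes. Zranb3, a DNA repair helicase, had a difference of -2.61 ± 0.30 (-1.20 by another probe) and Oip5, a centromere protein, of -2.45 ± 0.52, with LPS-treated knockout arrays at background.

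Larger induction included lineage transcription factors. Gfi1, a zinc finger repressor of granulocyte and macrophage genes, lay at -1.32, -1.15, -1.59 and -0.96 untreated and 3.85, 3.48, 3.76 and 3.37 with LPS in wild type. In the knockout it lay at -2.98, -2.34, -3.02 and -3.13 untreated and 5.68, 5.26 and 5.58 with LPS. It thus started lower and ended higher, with no overlap, and rose by 8.37 against 4.87 (difference 3.50 ± 0.28, adjusted p = 4.7e-06). Egr2, a zinc finger factor of monocyte differentiation, followed the same course with levels of 5.09, 5.10 and 4.84 in LPS-treated knockout against 3.55, 3.21, 3.65 and 3.03 in wild type (difference 2.88 ± 0.36). Of 37 measured members of the list of immediate early and lineage transcription factors, 7 were lower and 7 higher, with a median of -0.16. The lower ones included Irf8, Crem, a cAMP response factor (-1.88, and -1.92 and -0.016 by other probes), and the orphan nuclear receptors Nr4a1 (-1.46) and Nr4a2 (-1.36), both of which were higher in the untreated knockout (1.26 and 1.64) and near wild type with LPS (-0.20 and 0.29).

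Pdgfrb, a receptor of platelet-derived growth factor and 1 of the fibroblast markers, rose from between -2.61 and -2.21 to 3.83, 3.61 and 3.75 in the knockout, and from between -2.16 and -1.54 to 2.04, 1.84, 2.17 and 1.88 in wild type. Its difference was 2.22 ± 0.22, while of the other 7 fibroblast markers tested only Lum was called, and lower (-1.17), the knockout being at the floor. Sh2d4a, an SH2 domain adaptor, reached 1.59, 1.45 and 1.36 in LPS-treated knockout cells against -2.15, -1.98, -1.93 and -1.97 in wild type (difference 3.92 ± 0.62). Its untreated wild type arrays were spread between -4.40 and -1.59, which gave its large error. Vgf, a neurosecretory protein precursor (2.46 ± 0.61), Aebp1, an extracellular matrix protein (2.26 ± 0.49), and Pcdh18, a protocadherin (2.12 ± 0.24), were larger as well. Vgf lost its call in 5 of 28 alternatives (highest adjusted p = 0.0897), among them without LPS-treated knockout replicate 3 (2.44, adjusted p = 0.053), Pcdh18 with the marked spot of its missing array kept (1.46, adjusted p = 0.22), and Aqp1, a water channel (2.16 ± 0.57), in 13 of 26 alternatives.

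Larger responses from background included chemokines that attract T cells. Ccl22 lay at the floor on all 8 untreated arrays, at -3.84, -3.39, -3.33 and -3.32 in wild type with LPS and at -1.49, -1.02 and -0.74 in the knockout, a rise of at least 4.18-fold against at least 21.4-fold. Ccl17, a ligand of the same receptor, lay at -0.71, -0.54, -1.16 and -0.86 with LPS in wild type and at 1.23, 1.29 and 1.63 in the knockout (difference 2.20 ± 0.18). Neither gene overlapped between the genotypes with LPS. Tnfrsf25, the death receptor DR3, did not exceed background on any of the 8 wild type or the 4 untreated knockout arrays and rose at least 14.7-fold in the knockout. Tnn, tenascin-N of the extracellular matrix, rose at least 17.5-fold in the knockout and at least 3.39-fold in wild type, and Ppp1r26, a regulator of protein phosphatase 1, at least 10.6-fold in the knockout.

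Of 22 chemokines measured, 4 were higher (2.92% of all genes were) and 0 lower (limma; 1 lower at an unadjusted p under 0.05, and 1 lower with normexp and quantile normalisation), with a median of 0.41. Besides Ccl17 and Ccl22 these were Cx3cl1, fractalkine, already higher in the untreated knockout (2.89), and Cxcl10. Cxcl10 started lower in the untreated knockout, at 3.05 to 3.60 against 4.80 to 6.01 in wild type. With LPS its arrays overlapped between the genotypes, with signals above 150000 at the bright end of the range, so the size of its difference is uncertain. Ccl17, Ccl22 and Egr2 also stand in the list of alternative activation markers, genes induced by IL-4, in which 6 of 25 measured members were higher and 4 lower, with a median of 0.06. The other higher ones were Ppargc1b, a coactivator of oxidative metabolism (2.39), Fn1, fibronectin (1.23), and Myc (0.57). The lower ones were Socs2 (-2.15), the IL-4 receptor subunit Il4ra (-1.19), Pparg (-0.96) and Tgm2 (-0.86).

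Of 49 interferon-stimulated genes measured, 11 had a larger response in the knockout, 3 a blunted one and 35 no called difference, with a median difference of 0.48. The larger responses numbered 19 after quantile normalisation (with 1 lower), 18 with normexp and quantile normalisation, 21 without the 3 most deviating arrays and 6 of 31 in the deposited value table. All 11 with a larger response were lower in the untreated knockout, and of the 11, 0 were called higher and 1 lower with LPS. Usp18, a protease that removes ISG15 and dampens interferon signalling, lay at 2.54, 3.25, 2.89 and 3.53 untreated and at 7.55, 7.35, 7.14 and 7.52 with LPS in wild type. In the knockout it lay at 0.86, 1.10, 0.55 and 1.35 untreated and at 6.94, 6.89 and 6.85 with LPS. The untreated gap of -2.08 had shrunk to -0.50 with LPS, all knockout arrays still lying below wild type, and the difference of the responses, 1.59 ± 0.30, is this shrinkage.

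The same shrinkage held for Ifit3b, an antiviral gene with near-identical relatives (difference 1.51, untreated -2.18, with LPS -0.67). It also held for Gbp5, a guanylate-binding GTPase (1.20, -1.38, -0.18), and Ifi44 (1.08, -1.05, 0.03), whose LPS-treated arrays overlapped between the genotypes. Over the whole list, 32 of 49 genes were lower and 0 higher in the untreated knockout (limma; also 0 higher at an unadjusted p under 0.05), against 5.83% lower over all genes. With LPS 15 were lower, against 17.1% of all genes, and 0 higher (1 at an unadjusted p under 0.05). The median knockout minus wild type difference was -0.85 untreated and -0.28 with LPS. These gaps between genotypes are also gaps between slides, whereas a constant slide effect cancels in the difference of the responses, except for members at the floor, such as Ifi202b, Slfn1 and Slfn4 in untreated knockout cells. Of the 11 larger responders, 7, Isg15 and Rsad2 among them, had signals above 150000 at the bright end of the range, and the sizes of their differences are uncertain. For Tgtp2, 1 of these, another probe gave the opposite sign (-1.40 against 1.24). Ifnb1, interferon beta itself, was at the floor on all 4 untreated knockout arrays, between -4.38 and -3.69 in untreated wild type, and lower with LPS (-1.39). Its rise was at least 41.9-fold in the knockout and 5.19 (log2) in wild type, so its called difference of -0.79 is limited by the floor and does not show a smaller rise. The 3 members called blunted were Ifi202b and the T cell quiescence relatives Slfn1 (-2.44) and Slfn4 (-1.12), which have near-identical copies, and the sign of Slfn1 turned after quantile normalisation (0.56). Slfn4 lay at the floor on all 4 untreated knockout arrays and between -3.35 and -3.14 in untreated wild type. Its difference is thus limited by the floor, like that of Ifnb1, and does not show a smaller rise.

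**Figure D4:**
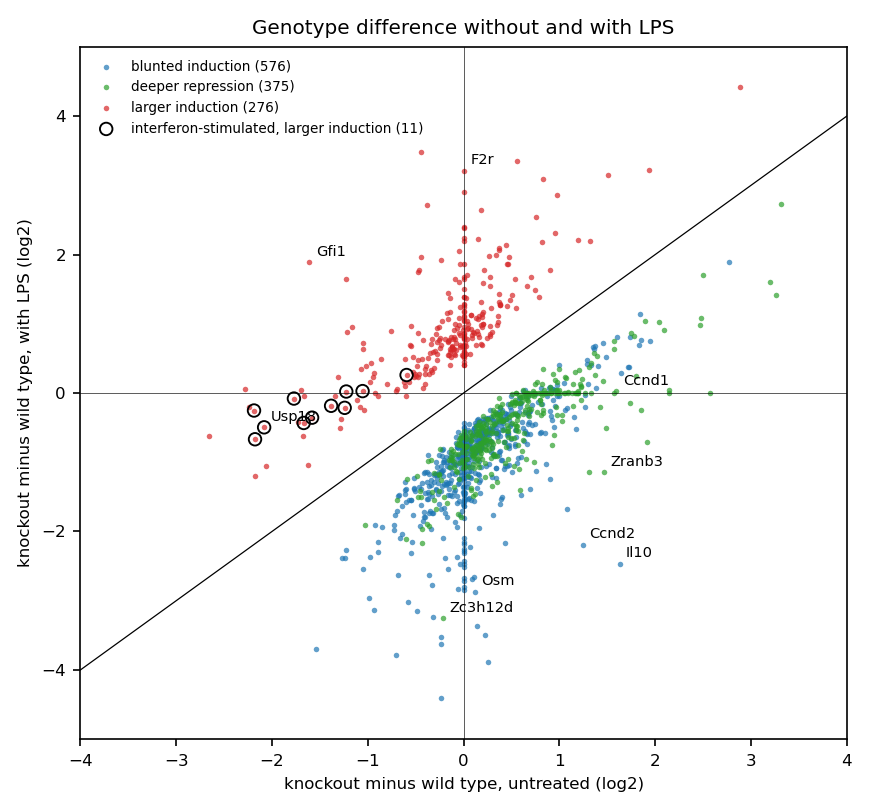
Knockout minus wild type in untreated cells (horizontal axis) and with LPS (vertical axis), both log2, for genes of blunted induction (blue), deeper repression (green) and larger induction (red); open circles mark the 11 interferon-stimulated genes with a larger response, the diagonal marks an equal gap in both states, and 9 genes lie outside the axes. The blue points spread downwards from 0, part of the green points lie to the right near 0 on the vertical axis, and the open circles lie to the left, at or below 0.26 on the vertical axis.

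The classes were also divided by the state in which the genotypes differed. The difference of the responses is the gap with LPS minus the gap untreated. A lower response therefore has a lower LPS level or a higher start by construction, and a higher response the reverse, so these counts only describe the classes. Among the 576 genes of blunted induction, 485 were lower in the knockout with LPS (17.1% of all genes were), and 402 of these had no called gap untreated. A higher start without a lower LPS level was found in 80. Among the 276 of larger induction, 215 were higher with LPS (13.6% of all genes were), 178 of them with no called gap untreated, and 56 were lower untreated and not higher with LPS. In deeper repression the corresponding counts were 177 lower with LPS only and 154 higher untreated only. The untreated part was the larger of both for 18.4% of blunted induction, 23.6% of larger induction and 46.4% of deeper repression, and for 42.6% of genes with no called difference.

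In shallower repression, genes fell further in wild type (median -1.75) than in the knockout (median -0.71), and 43 of the 119 had no called change in the knockout. Sik1, a salt-inducible kinase, lay at 0.38, 0.82, 1.06 and 1.21 untreated and -1.07, -1.21, -0.89 and -1.15 with LPS in wild type. The knockout lay at 0.58, 0.63, 0.42 and 0.57 untreated and 0.75, 1.06 and 0.85 with LPS. The genotypes overlapped untreated and were apart with LPS, with a difference of 2.29 ± 0.23. Pgm2l1, a sugar bisphosphate synthase (1.90 ± 0.29), had the same arrangement of groups. Tk1, the thymidine kinase of proliferating cells (1.56 ± 0.15), was higher in the knockout in both states. It lay between 2.43 and 2.61 in untreated wild type and between 2.95 and 3.05 in the untreated knockout, and with LPS at -1.14, -1.16, -1.07 and -1.37 in wild type and at 1.04, 0.84 and 0.60 in the knockout. Gpx2, a glutathione peroxidase (2.25 ± 0.48), and the antisense transcript Has2os (2.04 ± 0.58) started lower in the knockout, and Has2os lost its call in 18 of 28 alternatives.

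All 19 genes turned from fall to rise had a measured untreated level in both genotypes, and 3 of the 5 named by class lay at low levels. Ppargc1b fell by 1.39 in wild type, to the floor or near it, and rose by 1.00 in the knockout. Usp53, a relative of ubiquitin proteases (2.20 ± 0.19), lay between -4.10 and -1.48 on all arrays, and Spib, a B cell and plasmacytoid dendritic cell factor (2.72 ± 0.51), between the floor and -2.13. Slc6a13, a GABA transporter (2.15 ± 0.26), and Slc39a13, a zinc transporter (1.66 ± 0.26), had higher signals; Slc39a13 lay at 4.67, 4.75 and 4.36 in LPS-treated knockout against 2.78, 2.35, 2.99 and 2.23 in wild type.

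The remaining lists had calls in both directions or few calls, beside 7.17% lower and 2.92% higher over all genes. Among 31 purinergic and lipid mediator receptors and transporters, 10 were lower and 3 higher (median -0.38), the lower ones including Hcar2, the niacin receptor (-1.95), and Adora3, an adenosine receptor (-1.34). Among 21 G1 cyclins and CDK inhibitors, 5 were lower (Ccnd2, Ccnd1, Ccnd3, Cdk6, Rbl1) and 1 higher (Rbl2), with a median of -0.09. The sign of Ccnd3 (-1.14) turned in the deposited value table (0.12) and with marked spots kept (0.041). Among 33 genes of DNA replication and mitosis, 4 were lower and 1 higher (median -0.16), while 21 were higher and 0 lower in the untreated knockout (limma; 1 lower at an unadjusted p under 0.05). Over all genes, 11.9% were higher in the untreated knockout. Among 28 genes of the activin and TGF-beta pathway, 6 were lower and 4 higher (median 0.03), the latter including Bmp1, a procollagen protease (1.78, and 1.25 by another probe, but -0.42 and not called by a further one), and Tgfbi, a matrix protein (1.66). Among 26 genes of MHC class II and co-stimulation, 4 were lower, among them the co-stimulatory ligand Cd86 (-1.37), and 2 higher (median -0.38). Among 33 classical activation effectors, 6 were lower and 4 higher (median 0.01). Nos2, the inducible nitric oxide synthase, was among the latter (2.03), with an untreated gap of -2.66 and an LPS gap of -0.63 at the bright end of the signal range.

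The share of called genes varied among lists of signalling and metabolic genes, beside 10.1% over all genes. It was 7.41% in the NF-kB list, 4.0% in Toll-like receptors and adaptors, 5.26% in glycolysis and 3.57% in cholesterol synthesis, and 15.6% in insulin, PI3K and FoxO signalling, 23.5% in the AP-1 family and 28.6% in SOCS and cytokine feedback. Of 27 genes of the NF-kB pathway and its feedback, 0 were lower (limma; 6 at an unadjusted p under 0.05, and 2 called without the 3 most deviating arrays) and 2 higher, Malt1, a signalling protease (0.88), and Tnip1 (0.74), with a median of 0.04. Of 25 Toll-like receptors and adaptors, Irak4 was the 1 called (-0.63), and its sign turned in the deposited value table (0.010). Of 19 glycolysis genes 1 was lower, and of 28 cholesterol synthesis genes 1 was higher, Mvd (0.91), which lost its call in 16 of 28 alternatives. Of 32 genes of insulin, PI3K and FoxO signalling, 4 were lower and 1 higher, and of 14 SOCS and cytokine feedback genes, 3 were lower and 1 higher. In the AP-1 family itself, 3 of 17 measured members were lower and 1 higher. Junb was counted among the lower ones for lack of any signal in the knockout. Batf3, a partner of JUN proteins (-1.69 ± 0.32), and Atf3, a stress-induced member (-1.41 ± 0.18), rose by 1.55 and 1.39 in wild type and changed by -0.14 and -0.01 in the knockout. Untreated Batf3 lay at -2.02 to -1.42 in the knockout against -3.20 to -2.40 in wild type, and its LPS-treated arrays overlapped between the genotypes. All knockout arrays of Atf3 lay below wild type in both states. Maff, a small MAF protein (1.05), lost its call in 15 of 28 alternatives.

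**Figure D5:**
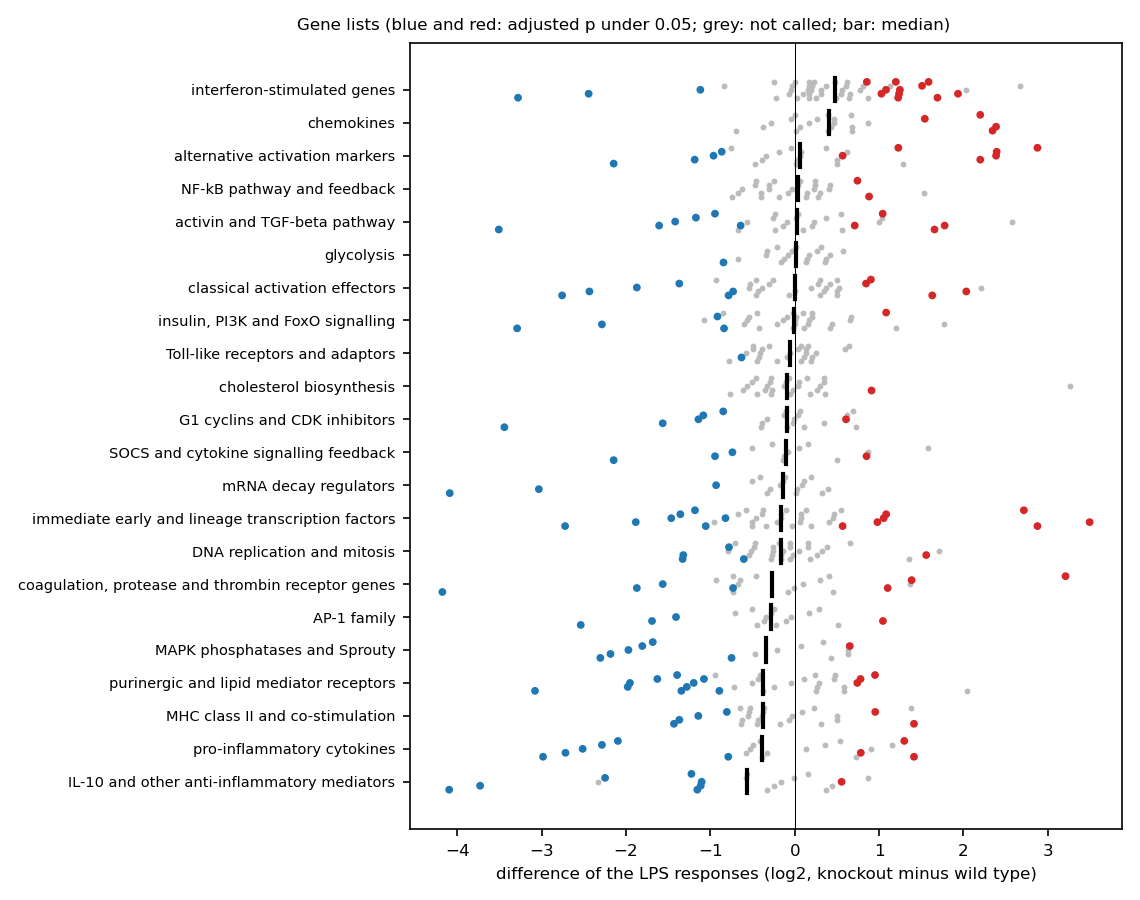
Difference of the LPS responses (log2, knockout minus wild type, horizontal axis) for the measured members of 22 gene lists, ordered by their median (black bar); blue and red points have an adjusted p under 0.05, grey points were not called. The list of IL-10 and other anti-inflammatory mediators has the lowest median (-0.56) and interferon-stimulated genes the highest (0.48).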

How the data were processed

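RNA from 15 wells was amplified and hybridised to single-colour Agilent mouse arrays, 8 to a slide, per the labels' protocols. Per the file headers, scans were processed in Agilent Feature Extraction 10.7.3.1 (probe design on mm9), and the processed signal is a background-subtracted intensity. The deposited value table holds log2 values of unstated method. It tracked the scanner's median spot signal, each column best for its own array (lowest Spearman correlation 0.968).

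Marked spots (4827 over all arrays) were set to missing, signals were divided by the array's 75th percentile (482 to 1490) and raised to a common floor (0.0436), and log2 was taken. Between 51.0% and 63.2% of spots were well above background. Probes were named through RefSeq accessions (26582 of 55681 matched 1 symbol, assembly GRCm38.p6), kept when well above background on 3 arrays of a group, and 1 per gene, the brightest, was used (14198 genes, 0.325% of values missing). limma 3.58.1 in R 4.3.3 fitted 4 group means, with Benjamini-Hochberg adjustment over 14197 genes at 0.05. Where a group was at background on every array, a fold is a lower bound against the higher, per array, of its own signal and the lowest signal well above background. The script was tested on simulated data. The normexp alternative used the median spot intensity, deposited with its local background.

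Genes were named by class and size of the difference (8 each of blunted, deeper and larger, 4 of shallower, 5 of each turned class, 5 in each direction from background, and up to 4 called members of each list). Genes with a group mean signal above 150000 were not named by class. Members and lists were chosen with earlier results of these data known. Replicate numbers did not pair the arrays: deviations of same-numbered arrays correlated between -0.53 and 0.56. Alternatives varied scaling, background, floor, filter, probe choice, arrays and blocks.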

Additional observations from a re-analysis of the deposited data

Results flagged for a closer look

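The difference of the LPS responses was itself tested, and by that test the genotypes differed for 1018 genes with a lower and 414 with a higher response in the knockout. The genes with opposite called directions differed by -4.09 (Zfp36l1), -3.29 (Irs2), -2.72 (Irf8), -2.52 (Adap2), -2.46 (Inpp1), 2.72 (Spib), 2.39 (Ppargc1b), 2.20 (Usp53), 2.15 (Slc6a13) and 1.66 (Slc39a13).

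In 15 of 256 pairs of a named gene and a group of 4 arrays (5.86%), 1 array stood apart from the other 3 by Dixon's criterion, which chance meets in about 1 of 20. In untreated wild type these were Adap2 at 2.48 on replicate 4, Cdk6 at -1.66 on replicate 1 and Slc28a2 at 1.94 on replicate 1. In LPS-treated wild type they were Ccl22 at -3.84 on replicate 1, Csf3 at 5.64, Slfn1 at 0.74 and Junb at 3.71 on replicate 2, and Zfp36l2 at 4.73 and Mertk at 0.39 on replicate 4. In untreated knockout they were Ppargc1b at -4.52 (the floor) on replicate 2, Zc3h12d at 0.44, Sesn2 at 0.36 and S1pr1 at 2.64 on replicate 3, and Carhsp1 at 0.74 and Dusp6 at 3.05 on replicate 4. S1pr1 lay between 1.59 and 1.75 and Sesn2 between -0.53 and -0.42 on the other 3 arrays of that group.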

How the results depend on the processing

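Lower responses outnumbered higher ones in every setting run. The main counts are 1018 lower and 414 higher responses, 576 blunted, 375 deeper, 276 larger and 119 shallower. Leaving out each array in turn gave 636 to 1439, 293 to 645, 389 to 794, 207 to 557, 199 to 398 and 76 to 207, in the same order. The deposited value table (11899 genes) gave 416, 111, 224, 148, 90 and 17, and array weights 3150, 1546, 1734, 1212, 739 and 696. At least 2-fold differences numbered 460, 189, 264, 140, 125 and 51. Without the 3 most deviating arrays there were 735 higher responses, 601 deeper, 426 larger and 271 shallower. Quantile normalisation gave 360 blunted, a lower floor 177 larger, and the filter in every group (11882 genes) 273 higher, 240 deeper and 156 larger. The replicate number as a block gave 818 lower and 300 higher responses; a replicate block within genotype gave 280, 105, 177, 80, 78 and 19. The numbers did not pair the arrays. Of 108 named genes, 56 kept direction and call in every alternative that gave a value for them (26 to 28 per gene), 52 lost the call in at least 1, and 5 reversed. The sign of Slfn1 turned after quantile normalisation (0.56), and in the value table that of Socs6 (0.20), Ccnd3 (0.12), Irak4 (0.010) and Cd83 (0.56), and of Ccnd3 with marked spots kept (0.041). The causes were not tested. The share of lower responses among calls was 71.1%, 61.4% without untreated wild type replicate 1 and 78.9% in the value table. Signal over background limits genes at the floor, and the number of arrays limits all.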

Other observations

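Probes without a RefSeq symbol were tested in the same model with adjustment over all kept probes. Of 14176 such probes, 588 (4.15%) had a different LPS response, 380 lower and 208 higher in the knockout, against 1503 of 18344 named probes (8.19%).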
